A study of Mus musculus with 12 samples.

Results

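The ribosomal protein genes of the mouse thymus were followed replicate by replicate across 3 ages. Members were the gene symbols of the deposited mRNA table that begin with Rpl or Rps followed by a number, together with Rpsa, Rplp0, Rplp1 and Rplp2. The kinase genes named Rps6k and names carrying -ps were left out. The rule found 86 of the 23508 gene symbols in the table, 52 of the large subunit (Rpl) and 34 of the small subunit (Rps). Of these, 77 encode core ribosomal proteins under their usual symbols and 9 are paralogs or partners. The 86 genes were summed from 307 transcripts, 44 of them assembled from the reads.

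The RNA came from whole thymus of male, wild type C57BL/6 mice that were 2 weeks (2W), 6 weeks (6W) or 3 months (3M) old, with 2 libraries per age. No transgene, treatment or sorting is given, so each library mixes the cell types of the organ. The 2W to 6W interval covers thymic growth and the 6W to 3M interval covers early decline. Ribosomal RNA was depleted and the libraries were strand-marked. The 6 mRNA tables summed to 16519753 to 22553481 counts.

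The ribosome joins a small subunit, which reads the mRNA, to a large subunit, which forms the peptide bond. Ribosomal proteins are made in matched amounts, and unpaired copies are degraded. Their mRNAs are known as TOP mRNAs, because they start with a terminal oligopyrimidine tract, a run of C and T through which mTOR signalling and Larp1 control their translation. In the thymus, ribosome production is highest in dividing thymocytes, and several ribosomal proteins are known from defects of blood cell and lymphocyte development.

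The RefSeq promoter table (GRCm38.p6) held windows for 66 of the 86 genes, from 250 bases before to 50 after each annotated start. An unbroken run of at least 8 C or T letters on the sense strand, within 20 bases before to 30 after the start, was found in 34 of the 66 genes, or 51.5%. Over the 27025 symbols in that table the share was 21.5%. The motif CCGGAAG, searched on both strands, was found in 26 of the 66 genes (39.4%), and in 9.93% of all symbols. The searches can overlap, since CTTCC, the start of the reverse form CTTCCGG, can end a pyrimidine run. Matches describe letters in a window and are not mapped sites.

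Windows from 60 bases before to 20 after the start are shown for the 3 genes with the lowest and the 3 with the highest 3M to 6W ratio, because they are the ends of the range described below. Capitals mark runs of at least 8 C or T. The genes are Rps27 (chr3:90213629-90213708, minus strand), Rpl28 (chr7:4792905-4792984, plus strand), Rpl36a (chrX:134585594-134585673, plus strand), Rpl5 (chr5:107900468-107900547, plus strand), Rps2 (chr17:24720003-24720082, plus strand) and the upstream start of Rps27l (chr9:66946026-66946105, plus strand).
Rps27: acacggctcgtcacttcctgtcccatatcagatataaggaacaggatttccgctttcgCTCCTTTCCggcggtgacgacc
Rpl28: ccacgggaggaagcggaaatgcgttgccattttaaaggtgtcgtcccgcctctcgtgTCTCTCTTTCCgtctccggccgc
Rpl36a: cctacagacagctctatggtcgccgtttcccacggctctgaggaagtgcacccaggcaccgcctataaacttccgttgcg
Rpl5: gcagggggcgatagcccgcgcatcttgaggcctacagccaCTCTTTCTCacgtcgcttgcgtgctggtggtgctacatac
Rps2: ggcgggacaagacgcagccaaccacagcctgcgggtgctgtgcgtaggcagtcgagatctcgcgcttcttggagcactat
Rps27l: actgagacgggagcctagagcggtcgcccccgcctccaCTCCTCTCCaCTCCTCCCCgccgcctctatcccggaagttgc
The runs of Rps27 and Rpl28 span the annotated start, those of Rpl5 and Rps27l end before it, and Rpl36a and Rps2 hold none in the stretch shown.

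Ribosomal protein genes took between 3.07% and 4.36% of the counts of a library. The share was 3.91% and 3.28% in the 2W libraries, 4.16% and 4.36% in the 6W libraries, and 3.07% and 3.74% in the 3M libraries. Both 6W libraries lay above the other 4, and the 2W and 3M libraries overlapped. The mean share was 3.60% ± 0.445 (SD, n = 2) at 2W, 4.26% ± 0.142 (SD, n = 2) at 6W and 3.40% ± 0.471 (SD, n = 2) at 3M. With 2 libraries against 2, the two-sided exact permutation test gave p = 0.333 for 6W against 2W and for 3M against 6W, the smallest value this design allows, and p = 0.667 for 3M against 2W. These shares and the values below are relative to each library of whole-organ RNA, so fewer cells of a type and less RNA per cell cannot be told apart.

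**Figure D1:**
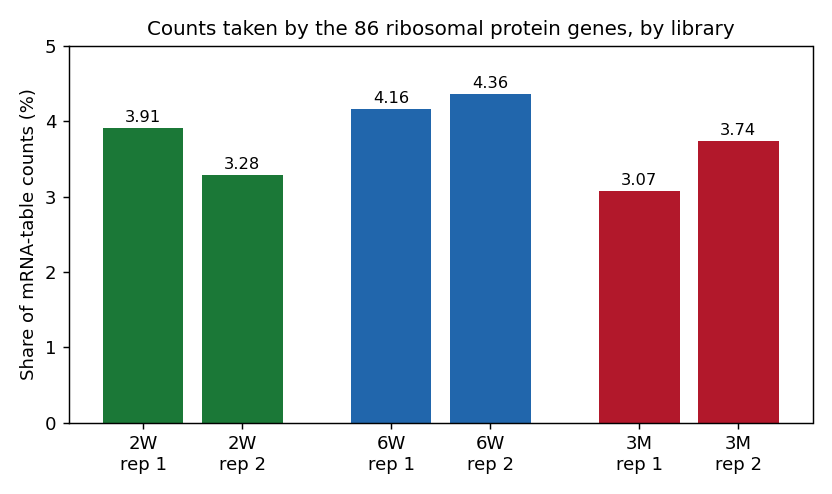
Share of the mRNA-table counts (%, y axis) taken by the 86 ribosomal protein genes in each library (x axis), with bars coloured by age. The 6W bars are the tallest at 4.16% and 4.36%, and replicate 1 of 3M is the lowest at 3.07%.

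Levels compared between genes are given per transcript length, as FPKM (fragments scaled to transcript length and library size) averaged over the 6 libraries. A count was seen for 85 of the 86 genes, and 82 passed the filter on low counts used for testing. The 4 that did not pass were Rpl10l, Rpl39l, Rpl3l and Rps27rt. Rpl10l, a testis paralog of Rpl10, was listed at 0 in every library. Rpl39l held at most 4 counts, the muscle paralog Rpl3l at most 7 and Rps27rt at most 15.0.

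Among the 82 genes tested the median of the mean FPKM was 478, and the highest included Rps14 (2374 FPKM), Rpl26 (1411 FPKM), Rps4x (1300 FPKM) and Rplp0 (1292 FPKM). These 4 are core proteins of the subunits or the stalk. The 10 genes with the most counts held 34.0% of the members' counts. The lowest mean FPKM among genes with a count were those of Rpl3l (0.05), Rpl39l (0.14) and Rps27rt (0.75). Under 100 FPKM lay 7 tested genes. Of these, 4 are paralogs or partners, namely Rps19bp1, Rpl22l1, Rpl7l1 and Rps27l, and 3 are core genes.

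The table entries of these 3 core genes bear on their levels. Rps12 stood at 12.9 FPKM with 96.6 to 168 counts, while the name Rps12-ps3, left out by the rule, held 9150 to 17473 counts. Rps12-ps3 took 99.0% of the pair's counts. Rps20, at 46.3 FPKM, was entered as a single transcript of 3706 nt. Rpl12, at 14.8 FPKM, had 2 transcripts with 51.8% and 48.3% of its counts. Rpl10 had a similar neighbour in Rpl10-ps3, which took 71.4% of that pair's counts, with 10095 to 17204 counts against 4183 to 6663 for Rpl10. Reads of such near-identical copies may be split by the counting, so the levels of Rps12 and Rpl10 are uncertain.

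The genes moved together between libraries, and they did so between replicates of the same age. On counts scaled to library size (CPM, with TMM factors), each gene was set against its own mean over the 6 libraries. The median of these log2 deviations over the 82 genes was 0.14 and −0.19 in the 2W libraries, 0.15 and 0.25 in the 6W libraries, and −0.34 and −0.06 in the 3M libraries. Over all 15199 genes tested the same medians ran from −0.01 to 0.04. Replicate 2 of 6W was the highest library for 56 of the 82 genes, against 12.03% of all genes tested. Replicate 1 of 3M was the lowest library for 68 of the 82 genes, against 21.3% of all genes tested.

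**Figure D2:**
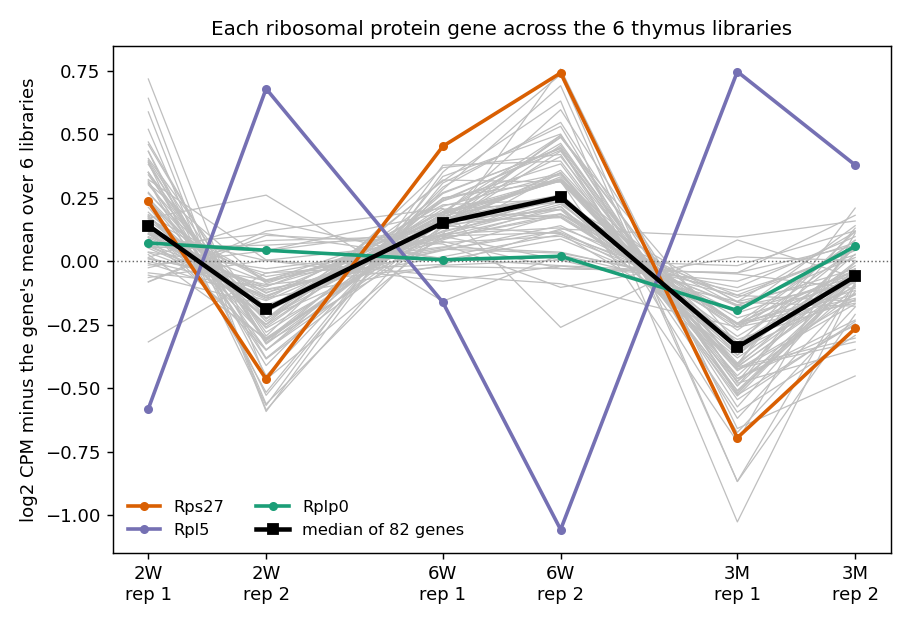
Log2 CPM of each of the 82 genes minus its own mean over the 6 libraries (y axis) in each library (x axis). Grey lines join the values of a gene, the black line joins the medians (0.14, −0.19, 0.15, 0.25, −0.34 and −0.06), and Rps27, Rpl5 and Rplp0 are coloured. Most grey lines follow the black line, and Rpl5 runs against it.

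The gap between replicates was of the same order as the gap between ages. At 2W, 71 of 82 genes were higher in replicate 1, against 50.3% of all genes tested, with a median replicate 2 minus replicate 1 difference of −0.34 (log2). At 6W, 69 genes were higher in replicate 2, against 46.8% of all genes, with a median difference of 0.11. At 3M, 76 genes were higher in replicate 2, against 47.4% of all genes, with a median difference of 0.28. The median of the same difference over all genes tested lay between −0.022 and −0.0033 at each age. The mean absolute gap of a gene, averaged over the 3 ages, had a median of 0.27 (log2), or 1.21-fold. The largest were those of Rpl5 (0.84), Rpl28 (0.74) and Rpl36 (0.69).

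Of the 82 genes, 64 had a Pearson r above 0.8 with the family median over the 6 libraries. This describes 6 points per gene, and each gene is part of the median. The same r was not computed for other genes, so the count is not shown to be particular to the family. The r was below 0 for 4 genes, among them Rpl5 (−0.94), Rpl10 (−0.48) and Rps27l (−0.24).

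For 6W against 2W, the interval of thymic growth, no ribosomal protein gene passed an adjusted p of 0.05 in edgeR's quasi-likelihood test, where 0.816% of all genes tested did. DESeq2 also called none of them (5.71% of all genes). At an unadjusted p under 0.05, edgeR called 2 of 82 genes, both higher at 6W, against 10.9% of all genes in that direction and 18.0% in either. Those 2 were Rps27 and Rpl26. The count in either direction was 29 of 83 without replicate 1 of 2W, against 17.4% of all genes, and between 0 and 10 without any other library, against 8.0% to 22.2% of all genes. The fitted log2 fold change was above 0 for 72 of 82 genes, against 49.3% of all genes. Without replicate 2 of 2W it was above 0 for 62 of 83 genes and below 0 for 21, where 48.2% of all genes were below 0. With the length trend of other genes taken out it was above 0 for 57 of 82 and below 0 for 25. In that fit 45.9% of all genes were below 0. The median was 0.22, with quartiles of 0.08 and 0.30, and the median over all genes was −0.0049. Both 6W libraries lay above both 2W libraries for 29 genes, against 27.8% of all genes tested. Both lay below for 5 genes, against 29.3%. Those 5 were Rpl12, Rpl17, Rpl7l1, Rplp0 and Rps12. The median depended on the 2W libraries, being 0.40 without replicate 1 of 2W and 0.06 without replicate 2 of 2W.

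The 3 highest fitted values for 6W against 2W were those of Rps27, Rps15 and Rpl36. Rps27, a zinc-finger protein of the small subunit, had 288 and 177 CPM at 2W and 334 and 409 CPM at 6W. Its log2 fold change was 0.68 ± 0.26 (SE), with an edgeR adjusted p of 0.260, and its 6W libraries did not overlap its 2W libraries. Rps15, another small-subunit protein, had a log2 fold change of 0.46 ± 0.30 (SE). Rpl36, of the large subunit, had 0.44 ± 0.37 (SE), with replicate 1 of 2W at 154 CPM inside the 6W range of 139 and 185 CPM. These values rested on the 2W libraries. Without replicate 2 of 2W they were 0.40, 0.13 and 0.095 for Rps27, Rps15 and Rpl36, and without replicate 1 of 2W they were 1.06, 0.93 and 0.95.

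The 3 lowest were those of Rpl5 (−0.73 ± 0.46 SE), Rpl12 (−0.29 ± 0.14 SE) and Rps12 (−0.26 ± 0.22 SE). The Rpl5 value rested on replicate 2 of 2W, and was 0.06 without that library. With the counts of Rps12-ps3 added, the Rps12 value was 0.11.

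For 3M against 6W, the interval of early decline, the family was lower at 3M by a median of −0.40 on the log2 scale, or 1.32-fold, while edgeR called no gene at an adjusted p under 0.05 and DESeq2 called 9. Under 700 nt the median was −0.51 for 41 ribosomal protein genes and −0.49 for 145 other genes. With the length trend of other genes taken out the family median was −0.10. The edgeR quasi-likelihood test called 0 of 82 genes and 0.0% of the 15199 genes tested at an adjusted p under 0.05. The smallest edgeR adjusted p in the family was 0.263, shared by Rpl26, Rpl34 and Rps27. At an unadjusted p under 0.05 it called 34 of 82 genes, all of them lower at 3M, against 6.25% of all genes in that direction and 13.7% in either. The count of lower genes was 3 without replicate 2 of 6W, 6 without replicate 1 of 3M, 19 without replicate 1 of 6W, 49 without either 2W library and 63 without replicate 2 of 3M. In the same order those fits called 4.19%, 11.2%, 6.3%, 13.0% or 12.7%, and 20.8% of all genes in either direction. At an adjusted p under 0.05, DESeq2 called 9 genes, all lower, against 1.16% of all genes: Rpl23, Rpl23a, Rpl26, Rpl30, Rpl31, Rpl34, Rps24, Rps27 and Rps27a. The threshold used by the study, an unadjusted p under 0.05 with a log2 fold change beyond 1, was met by 3 genes, against 2.23% of all genes. Those 3 were Rps27, Rpl28 and Rpl36a, and with the length trend taken out none of the 3 had a fold change beyond 1 (−0.47, −0.89 and −0.54).

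Both 3M libraries lay below both 6W libraries for 64 of 82 genes, against 23.2% of all genes tested. Only Rpl5 lay above in both, against 25.6% of all genes. The other 17 genes overlapped between the ages, among them Rpl10, Rpl10a, Rpl12, Rpl27a, Rpl3, Rpl7l1, Rplp0, Rps12, Rps16, Rps19, Rps19bp1, Rps2, Rps20, Rps21, Rps27l and Rps4x. The fitted value was below 0 for 75 of 82 genes, against 46.9% of all genes. The median was −0.41 over the Rpl genes and −0.32 over the Rps genes. Leaving out a library moved the family median between −0.61, without replicate 2 of 3M, and −0.25, without replicate 1 of 3M.

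**Figure D3:**
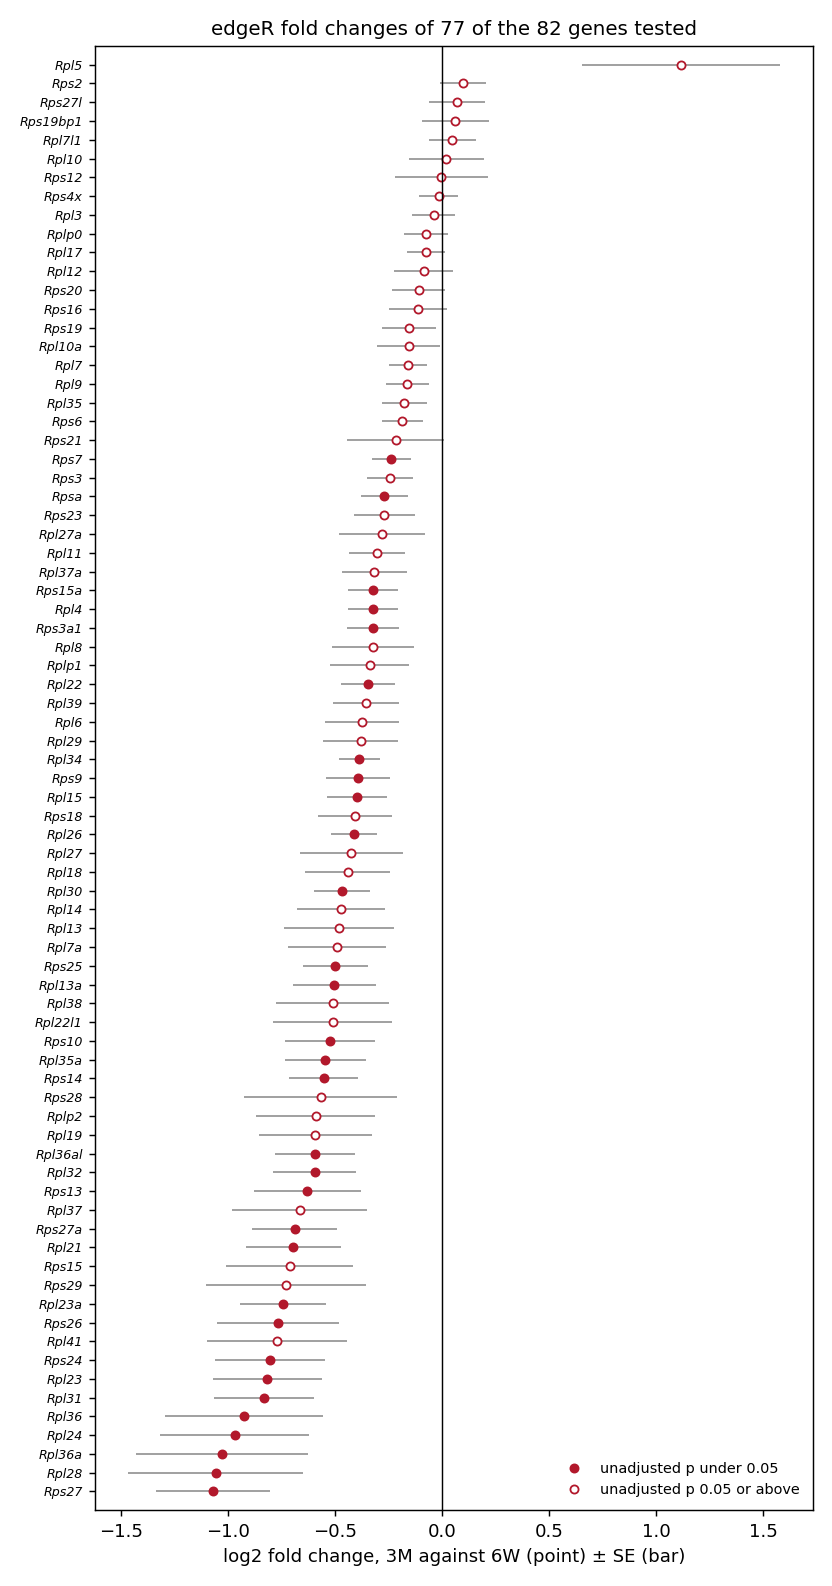
Log2 fold change of 77 of the 82 genes, 3M against 6W (x axis, point) with its SE (bar), ordered by value (y axis, gene). Filled points have an unadjusted edgeR p under 0.05; there are 31 here, all below 0. Values run from −1.07 (Rps27) to 1.12 (Rpl5), and none passed the adjusted p in edgeR.

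The values of all 82 genes fell into bands of log2 fold change. At or below −0.8 lay 8 genes (Rps27, Rpl28, Rpl36a, Rpl24, Rpl36, Rpl31, Rpl23 and Rps24), and all 8 had an unadjusted p under 0.05. Between −0.8 and −0.6 lay 10 genes, among them Rpl41, Rps26, Rpl23a, Rps29, Rps15, Rpl21, Rps27a, Rpl37 and Rps13. Between −0.6 and −0.4 lay 22 genes, among them Rpl32, Rpl36al, Rpl19, Rplp2, Rps28, Rps14, Rpl35a, Rps10, Rpl22l1, Rpl38, Rpl13a, Rps25, Rpl7a, Rpl13, Rpl14, Rpl30, Rpl18, Rpl27, Rpl26 and Rps18. Between −0.4 and −0.2 lay 20 genes: Rpl15, Rps9, Rpl34, Rpl29, Rpl6, Rpl39, Rpl22, Rplp1, Rpl8, Rps3a1, Rpl4, Rps15a, Rpl37a, Rpl11, Rpl27a, Rps23, Rpsa, Rps3, Rps7 and Rps21. Between −0.2 and 0 lay 15 genes, none with an unadjusted p under 0.05, among them Rps6, Rpl35, Rpl9, Rpl7, Rpl10a, Rps19, Rps16, Rps20, Rpl12, Rpl17, Rplp0, Rpl3, Rps4x and Rps12. Above 0 lay 7 genes, among them Rpl10, Rpl7l1, Rps19bp1, Rps27l, Rps2 and Rpl5.

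The lowest value was that of Rps27, whose 334 and 409 CPM at 6W stood against 151 and 203 CPM at 3M. Its log2 fold change was −1.07 ± 0.27 (SE), with an edgeR adjusted p of 0.263 and a DESeq2 adjusted p of 0.00438. Rpl28, a large-subunit protein, had 428 and 189 CPM at 2W, 363 and 474 CPM at 6W, and 156 and 246 CPM at 3M. The 6W and 3M libraries of Rpl28 did not overlap, but its 2W libraries spanned most of that range. Its 3M to 6W log2 fold change was −1.06 ± 0.41 (SE), with an edgeR adjusted p of 0.347. Rpl36a had 109 and 47.9 CPM at 2W, 71.3 and 112 CPM at 6W, and 41.8 and 48.3 CPM at 3M, with a log2 fold change of −1.03 ± 0.40 (SE). Without replicate 2 of 6W the values were −0.92 for Rps27, −0.86 for Rpl28 and −0.66 for Rpl36a, and without replicate 1 of 6W they were −1.21, −1.24 and −1.32.

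**Figure D4:**
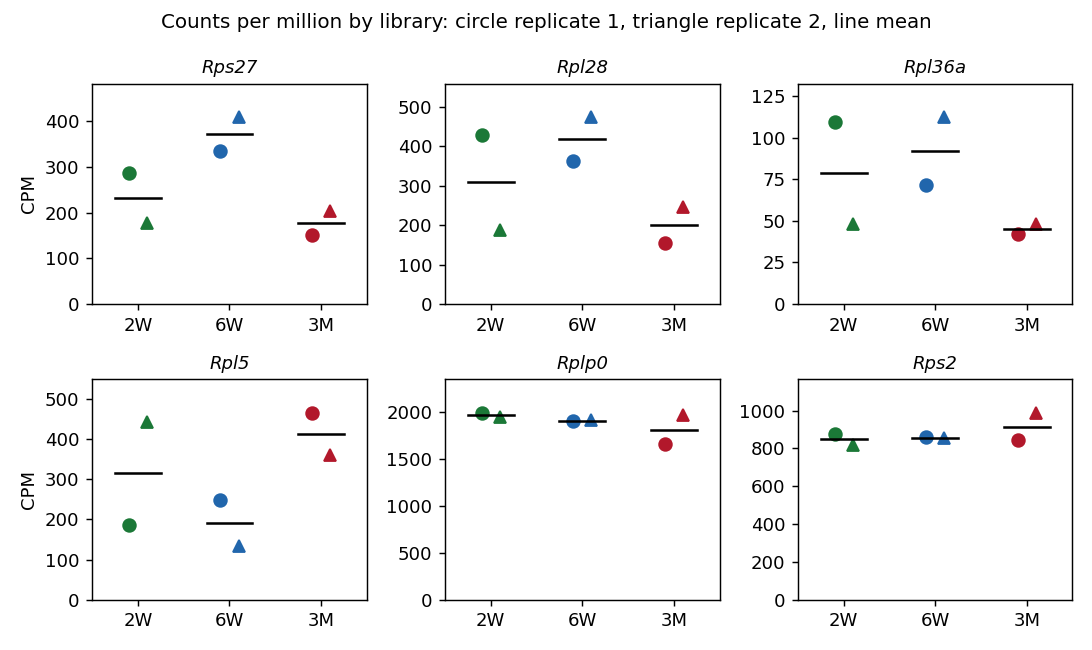
CPM (y axis, from 0) of 6 genes by age (x axis), with a circle for replicate 1, a triangle for replicate 2 and a line for the mean. The 6W points of Rps27, Rpl28 and Rpl36a lie above their 3M points, Rpl5 is reversed, and Rplp0 and Rps2 overlap between 6W and 3M.

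Rpl5 ran opposite to the family. With Rpl11 and the 5S rRNA it forms the complex that also binds Mdm2, the inhibitor of p53. Its level was 185 and 444 CPM at 2W, 248 and 133 CPM at 6W, and 466 and 361 CPM at 3M. Both 3M libraries were above both 6W libraries, replicate 1 of 2W lay between the 6W libraries, and replicate 2 of 2W lay above them. The 3M to 6W log2 fold change was 1.12 ± 0.46 (SE), with an edgeR adjusted p of 0.366. It was 0.73 without replicate 2 of 6W and 1.63 without replicate 1 of 6W. A transcript of 834 nt held 92.2% of the Rpl5 counts, and its own counts ranged from 2524 to 7629. A second transcript of 2045 nt held 7.66% and ranged from 394 to 527 counts. The swing of the gene was therefore that of the first transcript entry. Rpl11, its partner in the complex, had 454 and 401 CPM at 2W, 454 and 489 CPM at 6W, and 345 and 419 CPM at 3M, with a log2 fold change of −0.30 ± 0.13 (SE).

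Rps2 and Rps27l had the next highest values. Rps2, which lies near the mRNA entry site of the small subunit, had 878 and 817 CPM at 2W, 858 and 853 CPM at 6W, and 844 and 987 CPM at 3M. Its log2 fold change was 0.10 ± 0.11 (SE), and its 3M libraries lay on either side of the 6W libraries. Rps27l, the p53-responsive paralog of Rps27, had 47.7 and 52.5 CPM at 6W and 51.4 and 53.7 CPM at 3M, with 0.07 ± 0.13 (SE).

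The stalk genes encode the proteins that recruit elongation factors to the ribosome. Rplp0, its base, had 1987 and 1948 CPM at 2W, 1898 and 1916 CPM at 6W, and 1653 and 1969 CPM at 3M, with a 3M to 6W log2 fold change of −0.07 ± 0.10 (SE). Rplp1 had 526 and 418, 583 and 646, and 411 and 561 CPM at the 3 ages in turn, with −0.34 ± 0.18 (SE). Rplp2 had 287 and 176, 254 and 325, and 160 and 224 CPM, with −0.59 ± 0.28 (SE). The 3M libraries were below the 6W libraries for Rplp1 and Rplp2, and replicate 2 of 3M was the second highest library for Rplp0.

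Among other small-subunit genes, Rps14, lost in the 5q- syndrome, had 1607 and 1249 CPM at 2W, 1851 and 1840 CPM at 6W, and 1111 and 1405 CPM at 3M, with −0.55 ± 0.16 (SE) and an edgeR adjusted p of 0.286. Rps19, mutated in Diamond-Blackfan anaemia, had −0.15 ± 0.12 (SE), and its 3M replicate 2 at 402 CPM lay inside the 6W range of 395 and 423 CPM. Rps6, the substrate of the S6 kinases, had −0.19 ± 0.10 (SE). Rpsa, also named as the laminin receptor, had 1818 and 1992 CPM at 6W and 1501 and 1661 CPM at 3M, with −0.27 ± 0.11 (SE). For Rpsa and Rps6 both 3M libraries were below both 6W libraries.

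Among paralog pairs, the usual member was the higher in FPKM in every library for Rpl7, Rpl22 and Rps27. Rpl22, which binds RNA and is needed for the development of αβ T cells, stood 8.10 to 15.6 times as high as Rpl22l1. Its log2 fold change, 3M against 6W, was −0.35 ± 0.13 (SE), from 154 and 167 CPM at 6W to 127 and 125 CPM at 3M, and that of Rpl22l1 was −0.51 ± 0.28 (SE). The ratio of Rpl7 to Rpl7l1 ranged from 28.2 to 34.1, and that of Rps27 to Rps27l from 4.25 to 11.3. Rps27 over Rps27l was lowest in replicate 1 of 3M (4.25), then replicate 2 of 3M (5.47) and replicate 2 of 2W (5.51), and was 10.2 to 11.3 in the other 3 libraries. Rpl36a and Rpl36al were of like level, with a ratio from 0.597 to 1.01. Rpl36al had a log2 fold change of −0.59 ± 0.19 (SE) and Rpl39, whose paralog is Rpl39l, had −0.35 ± 0.15 (SE). Rpl3, Rpl7 and Rps4x had −0.04 ± 0.10, −0.16 ± 0.09 and −0.02 ± 0.09 (SE).

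For 3M against 2W, which spans both intervals, edgeR called none of the 82 genes at an adjusted p under 0.05, where it called 9.43% of all genes tested. DESeq2 called none either, against 14.1% of all genes. At an unadjusted p under 0.05 edgeR called 1 gene, Rpl12, against 26.2% of all genes in either direction. The count in either direction was 23 of 83 without replicate 2 of 2W, against 20.5% of all genes, and 18 of 83 without replicate 2 of 3M, against 25.5%. It was 0 or 1 without any other library, against 19.7% to 27.9%. Rpl12, which sits at the base of the stalk, had 16.4 and 17.5 CPM at 2W and 13.2 and 12.9 CPM at 3M, with a log2 fold change of −0.37 ± 0.14 (SE) and an adjusted p of 0.153. The family median was −0.18 and the fitted value was below 0 for 71 of 82 genes, against 52.6% of all genes. Scaled by total counts alone, it was below 0 for 63 genes, against 44.9% of all genes. With the length trend taken out it was below 0 for 46 of 82, against 46.8% of all genes.

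Both 3M libraries lay below both 2W libraries for 13 genes, against 23.8% of all genes tested: Rpl12, Rpl17, Rpl21, Rpl22, Rpl23, Rpl23a, Rpl34, Rpl35, Rpl39, Rpl4, Rpl7, Rps7 and Rpsa. Both lay above for Rps27l alone, against 27.3% of all genes. Rps27l had 38.5 and 46.6 CPM at 2W, with a log2 fold change of 0.31 ± 0.13 (SE) and an edgeR adjusted p of 0.207. The lowest values were those of Rpl36a (−0.80 ± 0.40 SE), Rpl28 (−0.62 ± 0.41 SE) and Rpl24 (−0.61 ± 0.35 SE), and the highest beside Rps27l were those of Rpl5 (0.39 ± 0.46 SE) and Rps2 (0.11 ± 0.11 SE). Rpl24, of the large subunit, had 118 and 76.2 CPM at 2W and 43.6 and 83.7 CPM at 3M, so its replicates overlapped. Without replicate 1 of 2W the values were −0.10 for Rpl36a, 0.079 for Rpl28 and −0.27 for Rpl24, and without replicate 2 of 2W they were −1.27, −1.08 and −0.88. Without replicate 1 of 2W the family median was −0.01 and 39 of 83 genes were above 0. The other 44 were below 0, against 50.7% of all genes.

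Transcript length moved with these values. The median transcript length of the 82 genes, as implied by the deposited FPKM, was 698 nt, against 3066 nt for other genes with a mean over 10 CPM. The 41 ribosomal protein genes under 700 nt had median log2 deviations of 0.23 and −0.23 at 2W, 0.19 and 0.33 at 6W, and −0.42 and −0.09 at 3M. The 145 other genes under 700 nt had 0.23 and −0.13, 0.15 and 0.32, and −0.41 and −0.11 in the same libraries. The order of the 6 libraries was the same in both sets. In other genes of 4000 nt and over, 4 of the 6 libraries had the opposite sign, with 0.10 in replicate 1 of 3M and −0.09 in replicate 2 of 6W.

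**Figure D5:**
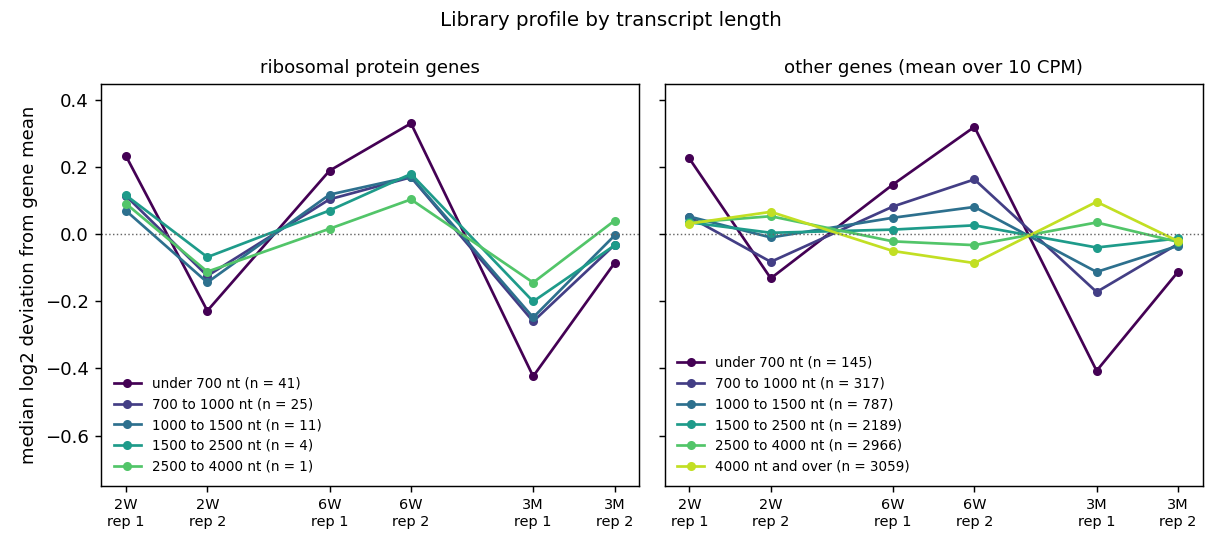
Median log2 deviation from each gene's mean (y axis) by library (x axis) and class of transcript length (line colour), for the ribosomal protein genes (left) and for other genes with a mean over 10 CPM (right). The shortest class swings the most in both panels, from 0.33 to −0.42 on the left and from 0.32 to −0.41 on the right.

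The 3M to 6W median was −0.51 for ribosomal protein genes under 700 nt and −0.49 for other genes under 700 nt. From 700 to 1000 nt it was −0.27 for 25 ribosomal protein genes and −0.21 for 317 other genes, and from 1000 to 1500 nt it was −0.28 for 11 and −0.12 for 787. From 1500 to 2500 nt it was −0.26 for 4 ribosomal protein genes and −0.04 for 2189 other genes. The length trend of the other genes was then taken out of each library, an alternative chosen after seeing the data. The family medians were 0.08 for 6W against 2W, −0.10 for 3M against 6W and −0.02 for 3M against 2W. The medians over all genes tested were 0.033, 0.024 and 0.028 in the same order. In that fit 52 of 82 genes were below 0 for 3M against 6W, against 46.5% of all genes. An unadjusted p under 0.05 was reached by 14, of which 9 were lower, against 12.6% of all genes, and none passed the adjusted p in edgeR. Of the genes described above for 3M against 6W, the values of Rplp0, Rplp1, Rpl11, Rps19, Rps6, Rpl22, Rpl39, Rpl3, Rpl7 and Rps4x were above 0 in that fit. Rps27l stood at 0.53, Rps2 at 0.29 and Rpl5 at 1.36, and Rps14 stood at −0.17. The part of length in the differences between ages was otherwise not tested.

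Gene lists tied to ribosomes were set beside the family. For 17 other TOP mRNAs, mostly elongation and initiation factors, the median log2 fold changes were 0.05, −0.18 and −0.17 in 6W against 2W, 3M against 6W and 3M against 2W. In that list 1 of 17 genes passed, for 3M against 2W, where 9.43% of all genes tested did. It was Hnrnpa1, which fell by 0.52 on the log2 scale from 2W to 3M (SE 0.11, edgeR adjusted p 0.0393). Tpt1, a TOP mRNA that encodes a small calcium-binding protein, had −0.64 ± 0.14 (SE) for 3M against 6W, with an edgeR adjusted p of 0.248.

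The 28 ribosome biogenesis genes, which process and assemble ribosomal RNA, had medians of −0.18, 0.04 and −0.05, and none passed. Polr1b, a subunit of RNA polymerase I, had 0.61 ± 0.12 (SE) for 3M against 6W, with an edgeR adjusted p of 0.248. The 11 regulators of ribosomal protein translation had medians of −0.02, −0.01 and −0.02, and none passed. The 78 mitochondrial ribosomal protein genes had medians of 0.02, −0.16 and −0.13. Of these 1 passed, for 3M against 2W, where 9.43% of all genes tested did. It was Mrps6, which rose by 0.62 ± 0.11 (SE, edgeR adjusted p 0.0263) from 2W to 3M. Of the nuclear respiratory chain genes 86 were tested, with medians of 0.13, −0.25 and −0.11 and none past the adjusted p.

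Cell type markers checked the tissue label and its shifts. The 10 thymocyte markers summed to 13780 to 18820 CPM and were all detected. Their median log2 deviation was 0.12 and 0.19 at 2W, 0.08 and 0.10 at 6W, and −0.27 and −0.20 at 3M. At 3M, 4 of 10 were lower than at 2W by the edgeR adjusted p, among them Cd8a and Cd4. The 4 cycling markers summed to 3311 and 3350 CPM at 2W, 2657 and 2694 CPM at 6W, and 2252 and 1761 CPM at 3M, with 3 lower at 3M than at 2W. Both the thymocyte and the cycling sums were highest in the 2W libraries and lowest in the 3M libraries. Single genes held much of them. At 2W, Rag1 had 9398 and 11170 of 17000 and 18820 thymocyte CPM. Mki67 had 1429 and 1232 of 3311 and 3350 cycling CPM.

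Markers of other cells moved too. By the edgeR adjusted p for 3M against 2W, 4 of 5 myeloid markers and 3 of 4 adipocyte markers were higher, 1 of 5 mature T-cell markers and 1 of 6 epithelial markers were higher, and 4 fibroblast markers split into 2 higher and 2 lower. None of 5 B-cell or plasma-cell, 5 red-cell or 2 tested muscle markers passed. Myeloid markers summed to 294 and 245 CPM at 2W, 609 and 570 CPM at 6W, and 633 and 654 CPM at 3M. Adipocyte markers summed to 30.6 and 32.3 CPM at 2W, 74.1 and 83.6 CPM at 6W, and 162 and 85.98 CPM at 3M, and were highest in replicate 1 of 3M, the library in which most ribosomal protein genes were lowest. Red-cell markers summed to 2161 CPM in replicate 2 of 3M and to 402 to 813 CPM in the other 5 libraries. No defining marker of these lists was at 0 in all libraries. The part of cell makeup in the ribosomal protein values was not tested.

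Circular RNAs from ribosomal protein genes were rare. Of 6300 circular RNAs in the deposited table, 3 were assigned to a member, 1 from Rpl22 and 2 from Rps3. The Rpl22 circle had 4 junction counts in replicate 2 of 6W and 0 elsewhere, and the Rps3 circles had 2 counts each, the first in replicate 1 of 3M and the other in replicate 2 of 6W. These counts were too few to compare ages.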

How the data were processed

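Thymus RNA was sequenced at 3 ages with 2 libraries per age. The authors deposited, for each mRNA transcript, an estimated count (71.8% of members' values were not whole) and an FPKM value; the table of circular RNAs holds deposited whole junction counts. The submitters' notes name Bowtie 0.12.2 and mm8 without a role. The counter is not given in the sources used here. Total RNA was depleted of ribosomal RNA, made into random-primed, dUTP strand-marked libraries after gel size selection, and sequenced; random priming and size selection can lower the recovery of short transcripts. The lncRNA counts were used only in library totals, and the miRNA libraries were not used here.

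Estimated counts were summed by exact gene symbol and rounded. Rows without a symbol held 0.70% to 1.20% of counts and were left out. All 6 libraries were fitted in edgeR 4.0.16 (quasi-likelihood F test, TMM, filterByExpr, age as the only term), and p-values were adjusted by Benjamini-Hochberg over the 15199 genes tested. DESeq2 1.42.0 was an alternative. CPM used a pseudocount of 0.5 on the log2 scale. Level comparisons used FPKM, from which transcript length was derived. Scripts were tested on simulated data. P-values measure only the spread between these libraries.

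Genes named were the 3 highest and 3 lowest fold changes of each comparison, the 5 highest and 3 lowest mean FPKM, the 3 largest replicate gaps, and genes with stated roles or paralogs; other genes were named where a count of 5 or fewer, or a pattern, called for it after values were seen. Of the other lists, genes with the smallest p were named. Members and lists were chosen with earlier results of these data known. Alternatives covered scaling, filter, test, libraries, replicate block, gene definition and length. A few genes are not reported here by name.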

Additional observations from a re-analysis of the deposited data

How the results depend on the processing

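With 2 libraries per age and replicates that differed across the whole family, precision was limited by the number of libraries, and the low counts of 4 genes kept them out of the test. The count of ribosomal protein genes past the adjusted p stayed at 0 in each comparison under total-count scaling, TMM factors from other genes, no filter, only the 4 libraries compared, joined symbols, Ensembl transcripts only, length offset and added -ps names, and without each single library. It was 9 for 3M against 6W in DESeq2 and 6, against 13.1% of all genes, for 3M against 2W without both replicate 2 of 2W and replicate 1 of 3M (range without libraries 0 to 6). That exclusion was chosen after seeing these genes' values and leaves 1 library at each of the 2 ages, assumed to vary like the 6W pair, so it is a description only. The cause was not tested. Genes called among all tested moved more: for 6W against 2W 124 against 851 in DESeq2 and 0 to 407 without a library, for 3M against 6W 0 against 342 in DESeq2, and for 3M against 2W 1433 against 2140 in DESeq2 and 5 to 1326 without a library.

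Over 11104 genes, same-numbered replicates deviated together for 6W and 3M (Pearson r 0.40) but oppositely for 2W and 6W (−0.19) and for 2W and 3M (−0.41), so the numbers were not taken to pair the libraries. With the replicate block, 0 ribosomal protein genes passed in each comparison and the medians were 0.22, −0.40 and −0.18, with 0, 0 and 411 genes called in all. At an unadjusted p under 0.05 the block called 18 of 82 for 3M against 6W, all lower, against 9.13% of all genes, where the fit without it called 34. The 2W numbers were then crossed, a pairing chosen after seeing the replicate deviations. That block called 1 of 82 ribosomal protein genes for 6W against 2W (Rps27), against 3.18% of all genes. For 3M against 2W it called 2 of 82 (Rpl23a and Rpl24), against 15.3% of all genes. No value of the crossed block is given for 3M against 6W.

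Medians without libraries ranged from −0.61 to −0.25 for 3M against 6W and from −0.39 to −0.010 for 3M against 2W. With the length offset the 3M against 6W median was −0.096, and among the genes the report describes the fold changes that changed sign were 0.042 for Rplp0, 0.11 for Rplp1, 0.0059 for Rpl11, 0.19 for Rps19, 0.059 for Rps6, 0.056 for Rpl22, 0.024 for Rpl39, 0.079 for Rpl3, 0.034 for Rpl7 and 0.19 for Rps4x. That offset was built from the length trend of other genes. Rps4x was 0.0015 with Ensembl transcripts only, and Rps12 was 0.11 for 6W against 2W with Rps12-ps3 added. Signs also changed without libraries: for 6W against 2W, Rpl5 ranged from −1.24 to 0.064. For 3M against 6W, Rps27l ranged from −0.014 to 0.14, Rps2 from −0.071 to 0.22, Rplp0 from −0.26 to 0.056, Rpl3 from −0.19 to 0.067 and Rps4x from −0.12 to 0.046. For 3M against 2W, Rpl28 ranged from −1.08 to 0.079, Rps2 from −0.039 to 0.25 and Rpl5 from −0.12 to 1.16. Taken from FPKM, the mean share was 11.02% at 2W, 12.5% at 6W and 10.5% at 3M, in the same order.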
